A study of Mus musculus with 11 samples.

Results

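The difference between wild-type (WT) and Mettl3-knockout (Mettl3-KO, here KO) mouse cells in the way gene expression changed on differentiation was measured for 15896 genes. Differentiation here is the step from embryonic stem cells (ESCs) to embryoid bodies (EBs), floating aggregates in which ESCs leave the pluripotent state. The response of a gene was its level in EBs minus its level in ESCs on the log2 scale, where 1 unit is a 2-fold change. The difference of response was the KO response minus the WT response, so that a negative value means a gene that rose less, or fell more, in KO cells. Replicates A and B of WT ESCs, WT EBs, KO ESCs and KO EBs were used, which are 8 of the 11 samples of the series, and genes entered when their mean over these 8 libraries was 10 or more normalized counts. Replicate C of the ESCs, which has no counterpart among the EBs, stayed outside and served as a check, and the sample of embryonic fibroblasts was not analysed here.

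All 8 libraries were of C57BL/6 cells. ESCs of either genotype were kept in N2B27 medium free of serum, with the cytokine LIF, CHIR99021 (an inhibitor of the kinase GSK3) and PD0325901 (an inhibitor of the kinase MEK), conditions that hold ESCs in the naive state. EBs were made from trypsinized ESCs on non-adherent plates in serum medium and kept for 8 to 21 days, a range the labels give without a day for each library, so age and genotype of the EBs cannot be told apart. The series asks whether loss of N6-methyladenosine (m6A) from mRNA alters the exit from naive pluripotency, and its design text calls the replicates biological without saying whether A and B were separate cultures or clones.

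Mettl3 is the catalytic subunit of the nuclear enzyme that methylates adenosines of mRNA, and reader proteins of the YTH family bind the mark and, among other effects, speed the decay of the transcript. When ESCs aggregate, the cells at the surface usually become primitive endoderm, which expresses the transcription factors Gata6, Gata4 and Sox17 and splits into parietal endoderm, the source of a thick basement membrane of laminin and type IV collagen, and visceral endoderm, an absorptive epithelium that makes serum proteins. The inner cells pass through an epiblast-like state towards ectoderm, mesoderm and definitive endoderm.

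The 8 libraries held 8523027 to 15426894 reads in genes, so that 1 read was worth 0.544 to 0.908 normalized counts. Replicates A and B correlated across the 15896 genes at r = 0.988 to 0.990 within each group, a figure dominated by differences between genes. Mettl3 itself was lower in both KO groups, with 422 and 392 normalized counts in WT ESCs, 399 and 368 in WT EBs, 138 and 134 in KO ESCs and 154 and 147 in KO EBs, and its difference of response was 0.23 ± 0.14 (SE; adjusted p = 0.22). Its exons overlap antisense genes over 18.4% of their length, and the library kit does not keep strand. The KO transcript that remained does not say how much of it encodes an active protein. The pluripotency factor Pou5f1 stood at 8389 to 9512 normalized counts in the 4 ESC libraries and at 4035 to 5876 in the 4 EB libraries, so the EBs of both genotypes still held much RNA of the ESC type, while the muscle gene Actc1 stayed under 0.9 and the globin Hbb-bh1 at 0 in all 8. Not all muscle genes were that low, and the myosin gene Myh7 held 302 and 244 normalized counts in WT EBs and 2.83 and 0 in KO EBs. Markers of fibroblasts and their matrix were present in every library, with a read for 22 of 22 genes and a summed level of 20692 to 20830 normalized counts in WT ESCs, 16715 to 16850 in WT EBs, 24679 to 24774 in KO ESCs and 14478 to 14628 in KO EBs, and their part in the results was not tested. In bulk RNA, fewer cells of a type and less RNA per cell cannot be told apart.

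The response to differentiation differed between the genotypes for 2875 genes (18.1% of 15896), counted where the adjusted p of limma's moderated test was under 0.05 and the difference was at least 1 log2 unit. The KO response was higher for 1264 genes (7.95%) and lower for 1611 (10.1%), and such genes are termed called. At the adjusted p alone there were 5731 genes (36.1%). The median difference over all genes was -0.01, with quartiles of -0.46 and 0.42. Each genotype on its own gave a similar number of calls, with 1608 genes (10.1%) rising and 884 (5.56%) falling in WT, and 1585 (9.97%) rising and 1130 (7.11%) falling in KO. Across genes the WT and KO responses correlated at r = 0.376 (rho = 0.338, 15896 genes), as a description of these libraries only, since genes are not independent replicates.

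The most frequent pattern among genes with a lower KO response was a rise in WT without a call in KO. Of the 1611, 631 rose in WT and were not called in KO, 115 rose in WT and fell in KO, and 86 rose in both but less in KO. A second set of 355 fell in KO without a call in WT, 47 fell in both and more in KO, and 377 were called in neither genotype alone. Among the 1264 genes with a higher KO response, 610 rose in KO without a call in WT, 235 fell in WT without a call in KO, 45 fell in WT and rose in KO, 89 rose in both and more in KO, 16 fell in both and less in KO, and 269 were called in neither. The responses of 160 genes were called in opposite directions.

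**Figure D1:**
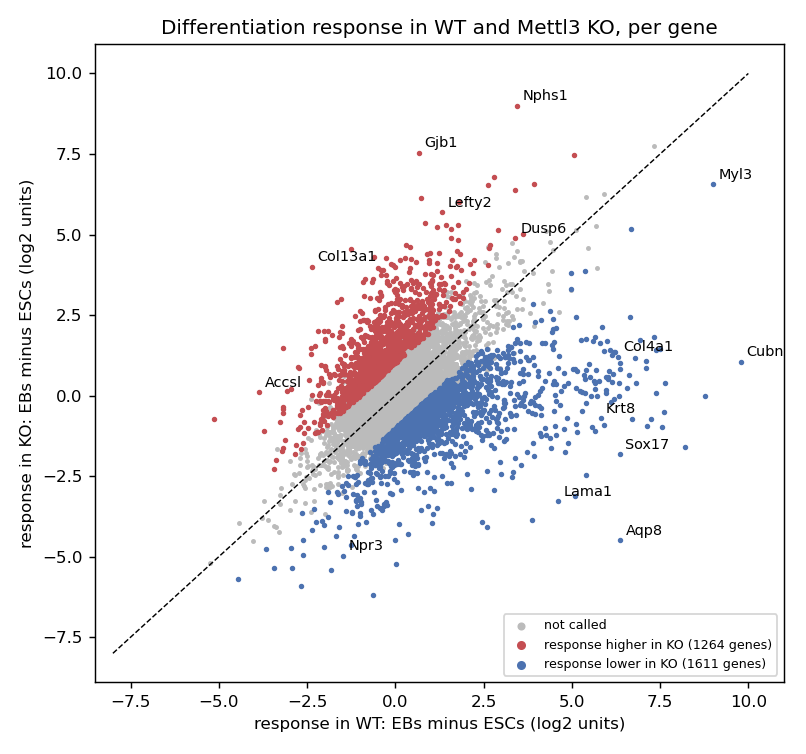
Response of 15896 genes in WT cells (horizontal axis, EBs minus ESCs, log2 units) against the response in KO cells (vertical axis, the same unit). Each point is a gene, coloured where the difference of response was called, and the dashed line marks equal responses. The 1611 genes with a lower KO response extend far to the right, to 9.79 in WT for Cubn, while the 1264 with a higher KO response extend upwards, to 9.00 in KO for Nphs1.

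Most endoderm genes that rose in WT EBs did not rise in KO EBs. Over 3 lists of endoderm genes, which hold 50 genes of which 44 were tested, 33 rose in WT (10.1% of all genes did) and 11 in KO (9.97%), while 30 had a lower KO response by limma, 26 by edgeR and 30 by DESeq2. A higher KO response was called for 0 by each of these tools and held by 1 at an unadjusted p under 0.05. The median difference was -3.60 against -0.01 over all genes, and the background rate of lower calls was 10.1%. Of the 44, 11 reached the filter only through the WT EB libraries, which favours a lower KO response without forcing one. The lists were drawn up with earlier results of these data known, so the counts are descriptions. The counts of the other lists are likewise descriptions, to be read against 7.95% of all genes called higher and 10.1% called lower.

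Transcription factors and signal proteins that mark primitive endoderm carried differences from -3.26 for Hnf4a to -8.18 for Sox17. Of the 16 listed regulators 14 were tested, and 10 were called lower, with a median response of 4.56 in WT and 0.27 in KO. Sox17, an HMG-box factor of all extraembryonic and definitive endoderm, stood at 17.9 and 15.3 normalized counts in WT ESCs, 1695 and 1223 in WT EBs, 40.8 and 40.0 in KO ESCs and 11.3 and 10.2 in KO EBs. Both WT EB libraries were far above the other 6, and both KO EB libraries were the lowest of the 8. Its difference of response was -8.18 ± 0.27 (SE; adjusted p = 4.2e-07), composed of a WT response of 6.36 and a KO response of -1.82. Sox17 lies at chr1:4490931-4497354 (GRCm38), and 16.8% of its exon bases lie under antisense exons.

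Foxa2, a forkhead factor that opens chromatin at endoderm enhancers, stood at 2.15 and 0 in WT ESCs, 409.9 and 288 in WT EBs, 7.62 and 7.27 in KO ESCs and 2.12 and 10.2 in KO EBs. Its KO EB libraries, 2.12 and 10.2, straddled the KO ESC values, and its difference was -8.12 ± 0.93 (SE; adjusted p = 0.00029) with only 3 reads in WT ESCs. The zinc-finger factors Gata4 and Gata6, which were singled out after their values were seen, went the same way. Gata4 held 23.6 and 26.7 in WT ESCs, 999.9 and 832 in WT EBs, 59.3 and 55.4 in KO ESCs and 38.8 and 24.6 in KO EBs, a difference of -6.00 ± 0.30 (SE; adjusted p = 4.1e-06). Gata6, the earliest of these factors in the embryo, held 22.2 and 22.1 in WT ESCs, 627 and 545 in WT EBs, 17.4 and 18.2 in KO ESCs and 13.4 and 15.3 in KO EBs, a difference of -4.95 ± 0.24 (SE; adjusted p = 3.3e-06). For both genes the WT EB pair stood far above the other 6 libraries, and both KO EB libraries lay under both KO ESC libraries.

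Pdgfra, the receptor used to sort primitive endoderm, had a difference of -4.14 and Hnf4a, a nuclear receptor of visceral endoderm, of -3.26. The 4 tested regulators that were not called were Cxcr4 at -0.33, Foxa3 at 0.03, Hhex at 0.07 and Eomes at 0.13. Eomes, a T-box factor of mesendoderm that is also needed in visceral endoderm, held 65.8 and 51.1 in WT ESCs, 126 and 107 in WT EBs, 75.1 and 67.2 in KO ESCs and 167 and 145 in KO EBs, so EBs of both genotypes lay above their ESCs by a similar amount. Its WT response was 0.99, its KO response 1.12 and the difference 0.13 ± 0.24 (SE; adjusted p = 0.71), against -0.88 with replicate C.

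Genes of the basement membrane followed the regulators. All 15 listed genes were tested, 12 were called lower, and the median was -3.41. Lama1 encodes the alpha-1 chain of laminin-111, the first laminin of the embryo. It stood at 1517 and 1578 normalized counts in WT ESCs, 37701 and 38512 in WT EBs, 1726 and 1794 in KO ESCs and 176 and 186 in KO EBs, and no library of one group overlapped those of WT EBs or of KO EBs. The gene (chr17:67697259-67822647, GRCm38) therefore moved in opposite directions, with a response of 4.62 in WT and -3.28 in KO, a difference of -7.90 ± 0.10 (SE; adjusted p = 1.6e-09). Its partner chain gene Lamb1 stood at 1246 and 1299 in WT ESCs, 24609 and 24940 in WT EBs, 1366 and 1391 in KO ESCs and 591 and 588 in KO EBs. Its groups followed the same order, with a difference of -5.51 ± 0.09 (SE; adjusted p = 9.8e-09). The gamma chain gene Lamc1, outside the naming rule, gave -3.47.

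Type IV collagen forms the network onto which laminin sheets assemble, and its alpha-1 and alpha-2 chains are encoded by 2 genes that share a promoter region. Col4a1 stood at 634 and 614 normalized counts in WT ESCs, 49823 and 49659 in WT EBs, 392 and 369 in KO ESCs and 864 and 895 in KO EBs. Col4a2, shown as its partner and outside the naming rule, stood at 347 and 304 in WT ESCs, 23895 and 22925 in WT EBs, 371 and 371 in KO ESCs and 585 and 608 in KO EBs. Both rose in WT, by 6.32 and 6.17. In KO Col4a1 rose by 1.21, while the response of Col4a2, at 0.68, was not called, and for both genes the KO EB pair lay between the KO ESC and WT EB pairs. The differences were -5.11 ± 0.09 (SE; adjusted p = 2.1e-08) for Col4a1 and -5.48 ± 0.11 (SE; adjusted p = 3.3e-08) for Col4a2.

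The promoters of the pair are printed because the genes lie head to head and moved together, and that of Dab2 because it holds a GATA motif; each runs from 250 bases before to 50 after the start site in RefSeq (GRCm38.p6). Capitals mark the 78 bases that both collagen windows contain (chr8:11312777-11312854), read on opposite strands, and in Dab2 the motif. Col4a2 is on the plus strand at chr8:11312555-11312854, Col4a1 on the minus strand at chr8:11312777-11313076 and Dab2 on the plus strand at chr15:6299539-6299838.
Col4a2: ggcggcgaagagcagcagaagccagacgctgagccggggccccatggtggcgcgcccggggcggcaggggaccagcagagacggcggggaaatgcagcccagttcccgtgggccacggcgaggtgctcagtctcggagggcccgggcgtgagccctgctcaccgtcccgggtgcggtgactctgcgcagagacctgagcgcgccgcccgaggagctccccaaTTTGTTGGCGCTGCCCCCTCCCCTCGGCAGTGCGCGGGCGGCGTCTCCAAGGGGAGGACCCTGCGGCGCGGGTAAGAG
Col4a1: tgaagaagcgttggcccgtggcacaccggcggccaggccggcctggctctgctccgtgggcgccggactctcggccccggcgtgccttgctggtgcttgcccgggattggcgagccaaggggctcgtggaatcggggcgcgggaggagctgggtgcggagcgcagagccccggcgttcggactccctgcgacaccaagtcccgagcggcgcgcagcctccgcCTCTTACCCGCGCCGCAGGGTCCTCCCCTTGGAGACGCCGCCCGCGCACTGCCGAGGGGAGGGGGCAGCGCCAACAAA
Dab2: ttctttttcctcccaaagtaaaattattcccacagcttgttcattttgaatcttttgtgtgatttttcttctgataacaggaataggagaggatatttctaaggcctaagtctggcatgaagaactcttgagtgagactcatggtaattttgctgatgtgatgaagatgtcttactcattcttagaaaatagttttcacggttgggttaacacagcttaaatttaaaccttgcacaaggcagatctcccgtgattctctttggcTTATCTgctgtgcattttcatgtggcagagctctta

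The start sites of the collagen pair are 21 bases apart. AGATAA, the strong form of the site that GATA factors bind, was searched on both strands, and in Dab2 it reads TTATCT. It occurred in 11.2% of 32851 RefSeq promoters of this length, in 6.31% of the 14047 that belong to tested genes, and in 3 of 26 promoters (11.5%) of endoderm list members called lower. Those 26 belong to 18 of the 30 members called lower, and the promoters of the other members were not used here. With only the promoter nearest the annotated start of each of the 18, 2 held the motif. A match of letters is a description, not a bound site.

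Dab2, an adaptor for clathrin-mediated uptake and an early protein of the primitive endoderm, stood at 28.6 and 33.6 normalized counts in WT ESCs, 889 and 994 in WT EBs, 60.9 and 72.7 in KO ESCs and 24.0 and 22.9 in KO EBs. KO EBs were the lowest pair and WT EBs the highest, and its difference was -6.34 ± 0.22 (SE; adjusted p = 4.8e-07). Pth1r, the parathyroid hormone receptor through which parietal endoderm matures, rose in both genotypes but to very different levels. It held 9.30 and 9.16 in WT ESCs, 1768 and 1522 in WT EBs, 8.16 and 9.99 in KO ESCs and 33.9 and 34.8 in KO EBs, a difference of -5.51 ± 0.24 (SE; adjusted p = 2.1e-06). Fst, which encodes the activin-binding protein follistatin, held 145 and 124 in WT ESCs, 775 and 741 in WT EBs, 253 and 234 in KO ESCs and 96.8 and 107 in KO EBs, a difference of -3.74 ± 0.16 (SE; adjusted p = 1.7e-06). Hspg2, the gene of the proteoglycan perlecan, was the most abundant member without a call, with 4090.3 and 3521 in WT ESCs, 7037 and 5953 in WT EBs, 5394 and 4893 in KO ESCs and 8801 and 7624 in KO EBs and a difference of -0.10 ± 0.16 (SE; adjusted p = 0.68). Its EB libraries lay above the ESC libraries of the same genotype in both cases.

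Genes of the absorptive visceral endoderm were called lower in 8 of 15 tested members by limma and in 5 by edgeR, of 19 listed, and 7 of the 15 passed the filter only through WT EBs. Those 7 were Rbp4, which was not called, and every member that limma called except Amn and Lrp2. The filter thus favoured most of these calls. Cubn encodes cubilin, the receptor that takes up vitamin B12 and lipoproteins, and stood at 3.58 and 0.763 normalized counts in WT ESCs, 2335 and 2702 in WT EBs, 3.81 and 1.82 in KO ESCs and 4.24 and 10.2 in KO EBs. WT EBs were at 2335 or more while the other 6 libraries stayed at 10.2 or less, and the difference was -8.73 ± 0.72 (SE; adjusted p = 5.3e-05). Among the 8 libraries, Afp, alpha-fetoprotein, had reads in WT EBs alone, at 405 and 473 normalized counts, while ESC replicate C held 16.5 in WT and 5.55 in KO. Against the limit that 3 reads over WT ESC replicates A and B allow, the WT rise of Afp was at least 394-fold. On the log2(value + 1) scale its difference was -8.78 ± 0.54 (SE; adjusted p = 1.2e-05). On recovered reads, where 3 of the 4 groups are at 0, edgeR did not call it (adjusted p = 0.9997) and DESeq2 did (adjusted p = 5.9e-05).

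Ttr, the thyroid hormone carrier transthyretin, held 5.01 and 3.82 in WT ESCs, 152 and 146 in WT EBs, 7.07 and 2.72 in KO ESCs and 0 and 1.70 in KO EBs, with 2 reads in KO EBs and a difference of -6.54 ± 0.75 (SE; adjusted p = 0.00028). Apoe, an apolipoprotein that ESCs also make, held 11304 and 9771 in WT ESCs, 13164 and 11276 in WT EBs, 12609 and 11272 in KO ESCs and 13280 and 11914 in KO EBs. Its groups overlapped, and its difference was -0.14 ± 0.15 (SE; adjusted p = 0.53). The other called members were Spink1 at -6.03, Apoa4 at -5.55 (69.8% of its exon bases lie under antisense exons), Apoa1 at -5.43, Amn (the partner of cubilin) at -4.49 and Lrp2 (megalin) at -1.78. The list median was -1.78, and it ranged from -3.13 to -1.19 over the alternative settings with replicates A and B.

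Keratins of simple epithelia had differences as large as those of the endoderm genes. In a list of 15 genes of trophectoderm and simple epithelium, 9 were tested and 5 were called lower. Krt8, the type II keratin of simple epithelia, stood at 66.5 and 76.3 normalized counts in WT ESCs, 3989 and 4132 in WT EBs, 313 and 335 in KO ESCs and 203 and 196 in KO EBs. KO ESCs already lay above WT ESCs, and KO EBs lay between the pairs of ESCs, which gives a difference of -6.51 ± 0.13 (SE; adjusted p = 3.3e-08). Its type I partner Krt18 had 87.3 and 79.4 in WT ESCs, 3268 and 3575 in WT EBs, 183 and 203 in KO ESCs and 292 and 312 in KO EBs, a difference of -4.70 ± 0.14 (SE; adjusted p = 3.2e-07). Krt19 had 9.30 and 15.3 in WT ESCs, 956 and 869 in WT EBs, 12.5 and 12.7 in KO ESCs and 16.2 and 18.7 in KO EBs, a difference of -5.70 ± 0.33 (SE; adjusted p = 8.4e-06). For Krt18 and Krt19 the KO EB pair was above the KO ESC pair, by an amount that was not called. The adherens junction gene Cdh1 was not called, at -0.70, and 0.72 with replicate C.

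**Figure D2:**
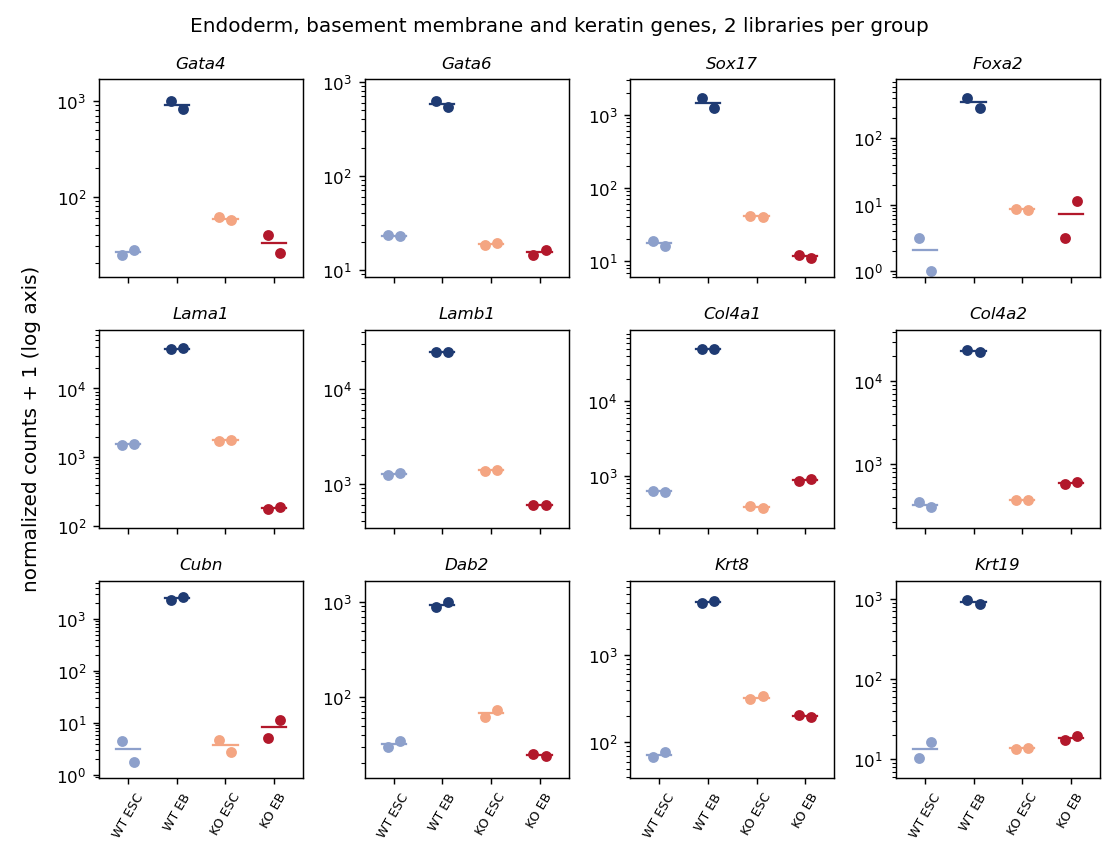
Normalized counts plus 1 (log axis) of 12 genes of endoderm, basement membrane and simple epithelium in the 2 libraries of each group (points) with their mean (line). WT EBs are the highest pair in all 12 panels, and KO EBs are the lowest pair for Sox17, Lama1, Lamb1, Gata6 and Dab2, but above KO ESCs for Col4a1 and Col4a2.

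Several of the largest differences belonged to genes outside these lists. Aqp8, a water channel, stood at 10.7 and 18.3 normalized counts in WT ESCs, 1245 and 1253 in WT EBs, 21.8 and 20.9 in KO ESCs and 0 and 0 in KO EBs. It thus rose in WT by 6.38, while KO EBs had 0 reads against 63 in KO ESCs, a fall of at least 18.5-fold at the limit of 3 reads. Its difference of -10.86 ± 0.37 (SE; adjusted p = 4.8e-07) was the largest by the naming rule. Hkdc1, a hexokinase-like protein, held 2.15 and 4.58 in WT ESCs, 1258 and 1217 in WT EBs, 12 and 16.3 in KO ESCs and 2.12 and 6.79 in KO EBs. Its KO EB libraries lay under both KO ESC libraries, and the difference was -9.81 ± 0.62 (SE; adjusted p = 1.3e-05). Hkdc1 passed the filter only through WT EBs, which favours a lower KO response. Srgn, serglycin, a core proteoglycan of secretory granules, held 45.8 and 45.8 in WT ESCs, 1587 and 1611 in WT EBs, 39.2 and 38.1 in KO ESCs and 4.94 and 2.55 in KO EBs. The KO EB pair fell under both ESC pairs, for a difference of -8.21 ± 0.32 (SE; adjusted p = 1.3e-06).

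S100g, a calcium-binding protein of the gut and placenta, Slc34a2, a phosphate transporter, and Gkn2 had 0 to 3 reads summed over each group other than WT EBs. S100g reached 217 and 231 normalized counts there, Slc34a2 162 and 174, and Gkn2 188 and 210. For Gkn2, which had 0 reads in either ESC group and 1 in KO EBs, the difference was -7.26 on the log2(value + 1) scale. On recovered reads edgeR did not call Gkn2 (adjusted p = 0.9997), while DESeq2 did (adjusted p = 0.0027). Frzb, a secreted Wnt antagonist, had 0 reads in WT ESCs and rose at least 138-fold in WT, to 163 and 140. Its KO libraries were at 8.71 and 3.63 in ESCs and 2.12 and 4.25 in EBs. S100g, Slc34a2, Gkn2 and Frzb passed the filter only through WT EBs, which favours a lower KO response.

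A different kind of lower response came from genes that were high in KO ESCs and not in EBs. Npr3, the clearance receptor for natriuretic peptides, held 112 and 104 normalized counts in WT ESCs, 38.3 and 37.9 in WT EBs, 1469 and 1505 in KO ESCs and 45.2 and 47.5 in KO EBs. KO ESCs stood far above WT ESCs while the EB pairs were close, and both genotypes fell, with responses of -1.48 and -4.97. Exph5 held 10.7 and 9.16 in WT ESCs, 5.36 and 6.89 in WT EBs, 167 and 184 in KO ESCs and 2.12 and 0.849 in KO EBs, so KO ESCs were the high pair there too, with no call in WT and a KO response of -6.20. Exph5 passed the filter only through KO ESCs, which favours a lower KO response. Slc30a10, a manganese exporter, fell in both genotypes, with responses of -1.26 in WT and -4.65 in KO. These differences rest on the ESC libraries: with replicate C as the ESC library, Npr3 gave 0.20, Slc30a10 -0.29 and Exph5 -1.38, none of them called.

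Secreted signals and their inhibitors split. In the Nodal and BMP list all 18 genes were tested, 6 were called lower and 4 higher, with a median of -0.53 that ranged from -0.71 to 0.03 over the alternative settings with replicates A and B. Nog, noggin, which binds and blocks BMPs, held 20.7 and 12.2 normalized counts in WT ESCs, 998 and 724 in WT EBs, 61.5 and 35.4 in KO ESCs and 20.5 and 22.1 in KO EBs. WT EBs were far above any other library, and the difference was -6.75 ± 0.44 (SE; adjusted p = 1.6e-05). Bmp2, a ligand made by visceral endoderm, held 7.87 and 8.4 in WT ESCs, 132 and 85.2 in WT EBs, 14.1 and 14.5 in KO ESCs and 10.6 and 13.6 in KO EBs, a difference of -3.79 ± 0.38 (SE; adjusted p = 0.00014).

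The Nodal targets Lefty1 and Lefty2, which encode secreted antagonists of Nodal itself, went the other way. Lefty2 held 48.6 and 55.0 in WT ESCs, 143 and 119 in WT EBs, 11.4 and 9.99 in KO ESCs and 554 and 664 in KO EBs. KO ESCs were the lowest pair and KO EBs the highest, which gives 4.38 ± 0.23 (SE; adjusted p = 5.3e-06), and 1.27 with replicate C. Lefty1 held 7.15 and 1.53 in WT ESCs, 64.4 and 72.3 in WT EBs, 5.99 and 9.08 in KO ESCs and 785 and 793 in KO EBs, so that it rose in both genotypes and more in KO, by 2.63. That difference was no longer called when the replicate letter entered the limma fit as a block (adjusted p = 0.066). Smad6, an inhibitor inside BMP-responding cells, gave 2.61 ± 0.27 (SE; adjusted p = 0.00017) with replicates A and B and 0.03 with replicate C.

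Retinoic acid genes were led by Cyp26a1, the enzyme that breaks retinoic acid down. Of 15 listed genes 13 were tested, 2 of them only through WT EBs, and 6 were called lower and 2 higher, against 10.1% and 7.95% of all genes. The median of -0.88 ranged from -1.55 to -0.47 over the alternative settings with replicates A and B. Cyp26a1 held 2.15 and 2.29 normalized counts in WT ESCs, 663 and 545 in WT EBs, 3.81 and 7.27 in KO ESCs and 2.83 and 1.70 in KO EBs. The WT EB pair stood alone, and the other 6 libraries were at 7.27 or less, for a difference of -8.52 ± 0.48 (SE; adjusted p = 7.7e-06). Meis1, a homeobox gene that retinoic acid activates, held 40.1 and 40.5 in WT ESCs, 152 and 148 in WT EBs, 37.5 and 29.1 in KO ESCs and 20.5 and 22.9 in KO EBs, a difference of -2.46 ± 0.25 (SE; adjusted p = 0.00016). Stra8, a retinoic acid target of germ cells, differed in the other direction by 4.46, from 5.99 and 9.99 in KO ESCs to 104 and 97.6 in KO EBs. Rarg, a receptor of the acid, was the most abundant member without a call, at 0.65.

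Among Wnt targets, 12 of 16 listed genes were tested, and 3 were called lower and 3 higher. Of the 12, 3 reached the filter only through WT EBs and 1 only through KO EBs, which favours a difference. Dkk1, a secreted Wnt inhibitor, held 2.86 and 3.82 normalized counts in WT ESCs, 78.9 and 68.9 in WT EBs, 1.09 and 5.45 in KO ESCs and 1.41 and 0 in KO EBs, a difference of -5.36 ± 0.86 (SE; adjusted p = 0.0016). Cdx1, a caudal homeobox gene, held 73 and 44.3 in WT ESCs, 13.0 and 4.30 in WT EBs, 64.2 and 60.8 in KO ESCs and 155 and 86.6 in KO EBs, a difference of 3.63 ± 0.65 (SE; adjusted p = 0.0028). WT EBs were the pair that stood apart for both genes, high for Dkk1 and low for Cdx1, and with replicate C Dkk1 gave -2.66. Ccnd1, the cyclin D1 gene, whose exons overlap antisense exons over 23.4% of their length, gave 0.05.

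Imprinted genes, which are expressed from 1 parental copy, had 10 calls lower and 4 higher among 21 tested of 26 listed, against 10.1% and 7.95% of all genes, with a median of -0.91. Peg10, a paternally expressed gene of retrotransposon origin, held 100.2 and 81.7 normalized counts in WT ESCs, 2609.6 and 2724 in WT EBs, 108 and 114 in KO ESCs and 59.3 and 79.8 in KO EBs. WT EBs stood far above the rest, and the difference was -5.55 ± 0.22 (SE; adjusted p = 1.3e-06). H19, a maternally expressed noncoding RNA, held 598 and 524 in WT ESCs, 10244 and 9218 in WT EBs, 377 and 331 in KO ESCs and 304 and 237 in KO EBs, a difference of -4.51 ± 0.19 (SE; adjusted p = 1.4e-06). Airn, the antisense RNA of the Igf2r locus, held 5.72 and 9.92 in WT ESCs, 53.6 and 79.2 in WT EBs, 8.71 and 7.27 in KO ESCs and 2.83 and 2.55 in KO EBs, a difference of -4.23 ± 0.49 (SE; adjusted p = 0.00029). Airn passed the filter only through WT EBs, which favours a lower KO response. The members called higher included Usp29 at 2.84 and Plagl1 at 1.29, and with replicate C those differences were -0.63 and -0.62.

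Immediate-early genes, whose transcription follows growth factors or handling within minutes, had 8 lower calls among 13 tested of 16 listed, at a median of -1.69. They rose in WT in 10 cases and in KO in 2, and 1 of the 13 tested reached the filter only through WT EBs. Ccn2, a matrix protein gene under YAP control, held 173 and 159.5 normalized counts in WT ESCs, 1896 and 1679 in WT EBs, 212 and 161 in KO ESCs and 123 and 119 in KO EBs. The WT EB pair stood far above the other 6 libraries, with a difference of -4.02 ± 0.19 (SE; adjusted p = 3.2e-06), and 23.2% of its exon bases lie under antisense exons. Btg2, also a p53 target, held 438 and 418 in WT ESCs, 1158 and 1091 in WT EBs, 906 and 866 in KO ESCs and 335 and 301 in KO EBs, a difference of -2.87 ± 0.12 (SE; adjusted p = 1.5e-06). Fos, a subunit of AP-1, held 20.0 and 13.7 in WT ESCs, 106 and 92.1 in WT EBs, 33.7 and 33.6 in KO ESCs and 38.1 and 28.0 in KO EBs, a difference of -2.54 ± 0.33 (SE; adjusted p = 0.00057). How long cells were handled before lysis is not given in the labels, and its part was not tested.

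Of the p53 targets, 17 of 18 were tested, with 7 lower and 1 higher and a median of -0.90. In ESCs 4 of them were called higher in KO. Perp, a junction protein gene, held 175 and 189 normalized counts in WT ESCs, 241 and 223 in WT EBs, 325 and 291 in KO ESCs and 122 and 127 in KO EBs, a difference of -1.65 ± 0.15 (SE; adjusted p = 8.1e-05). Pmaip1, the gene of the death protein Noxa, gave -2.10, and 0.33 with replicate C, where the list median was -0.24.

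Hypoxia and glycolysis genes, all 20 of them tested, had 6 lower calls, against 10.1% of all genes. The called members were not all glycolytic: P4ha1 and P4ha2 encode prolyl hydroxylases that modify collagen, and Egln3 an oxygen sensor. P4ha1 held 557 and 523 normalized counts in WT ESCs, 4235 and 4472 in WT EBs, 458 and 477 in KO ESCs and 589 and 618 in KO EBs, a difference of -2.64 ± 0.11 (SE; adjusted p = 1.3e-06), and only the WT EB pair stood apart. P4ha2 held 179 and 207 in WT ESCs, 2228 and 2226 in WT EBs, 66.9 and 77.2 in KO ESCs and 170.2 and 211 in KO EBs, a difference of -2.14 ± 0.18 (SE; adjusted p = 6.3e-05). The glycolytic enzyme gene Pkm was not called, at 0.15 ± 0.15 (SE; adjusted p = 0.47).

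Many genes of later lineages missed the filter. Of the early mesoderm genes 8 of 20 passed the filter, 1 of them only through WT EBs, with 4 lower and 1 higher. Hand1, a factor of extraembryonic and lateral mesoderm, held 1.43 and 0 normalized counts in WT ESCs, 59.8 and 34.4 in WT EBs, 0 and 2.72 in KO ESCs and 1.41 and 1.70 in KO EBs, with 4 reads in KO EBs and a difference of -4.49 ± 0.99 (SE; adjusted p = 0.0081), and edgeR gave an adjusted p of 0.0848. Among blood and endothelium genes 12 of 20 were tested, with 4 lower and 1 higher. Of the 12, 1 reached the filter only through WT EBs and 1 only through KO EBs, which favours a difference without forcing one. Cdh5, the cadherin of endothelium, had 0 or 1 read in each group other than WT EBs, where it stood at 52.9 and 49.9 normalized counts. Hand1 and Cdh5 were the members of their lists that passed only through WT EBs. Runx1, a factor of blood formation, held 18.6 and 13.0 in WT ESCs, 105 and 76.6 in WT EBs, 49.0 and 40.0 in KO ESCs and 36.7 and 24.6 in KO EBs, a difference of -3.00 ± 0.39 (SE; adjusted p = 0.00054).

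Cardiac muscle genes were called in both directions, with 3 lower and 4 higher among 14 tested of 21. Of the 14, 4 reached the filter only through WT EBs and 1 only through KO EBs, which favours a difference without forcing one. Myh7, a myosin heavy chain of the embryonic ventricle, held 4.29 and 2.29 normalized counts in WT ESCs, 302 and 244 in WT EBs, 0 and 0.908 in KO ESCs and 2.83 and 0 in KO EBs, and Myl3, a ventricular light chain, held 0 and 1.53 in WT ESCs, 808 and 813 in WT EBs, 0.544 and 0 in KO ESCs and 105 and 131 in KO EBs. Both were highest in WT EBs, and Myl3 rose also in KO. Their differences were -5.53 ± 0.90 (SE; adjusted p = 0.0017) and -2.43 ± 0.60 (SE; adjusted p = 0.013), and edgeR on recovered reads gave adjusted p values of 0.243 and 0.528. Ttn, the gene of the sarcomere spring titin, fell in WT from 2296 and 2604 to 238 and 308 while KO held 1954 and 2244 in ESCs and 1435 and 1694 in EBs. Its difference was 2.74 ± 0.20 (SE; adjusted p = 2.7e-05), and 0.12 with replicate C. Tnnt2 and Actc1, defining genes of heart muscle, did not reach the filter.

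**Figure D3:**
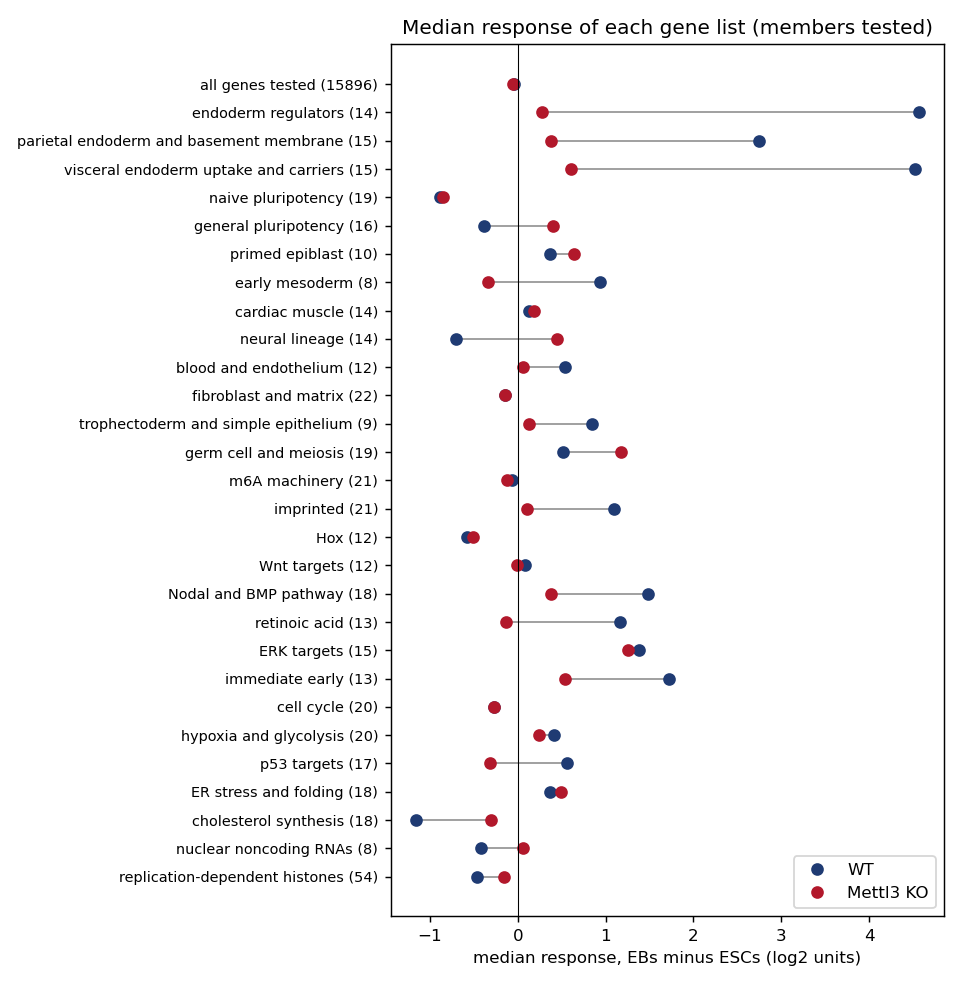
Median response (EBs minus ESCs, log2 units) of the tested members of each of 28 gene lists and of all genes tested, in WT (blue) and KO (red), with the number of genes tested in brackets. The gap is widest for the 3 endoderm lists, whose WT medians are 2.74 to 4.56 and KO medians 0.27 to 0.60, and runs the other way for cholesterol synthesis, neural lineage and general pluripotency.

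Protein-coding genes with a higher KO response rested on fewer reads than those with a lower one. The median was 70.9 normalized counts (not scaled to length) for the higher genes, against 124 for the lower and 221 over all protein-coding genes tested. Gjb1, the gap junction protein connexin 32, led the higher genes, with 5.72 and 9.16 normalized counts in WT ESCs, 15.3 and 9.47 in WT EBs, 1.09 and 0 in KO ESCs and 305 and 236 in KO EBs. KO EBs stood at 236 or more while no other library passed 15.3, and the difference was 6.88 ± 0.60 (SE; adjusted p = 6.5e-05). Gjb1 passed the filter only through KO EBs, which favours a higher KO response. Nphs1, the slit diaphragm protein nephrin, held 7.87 and 7.63 in WT ESCs, 94.2 and 95.6 in WT EBs, 0 and 0 in KO ESCs and 511 and 512 in KO EBs. It rose in both genotypes, from 0 reads in KO ESCs, for a difference of 5.55 ± 0.27 (SE; adjusted p = 3.8e-06). Its neighbour Kirrel2, a nephrin-like protein, held 7.15 and 6.87 in WT ESCs, 57.5 and 52.5 in WT EBs, 1.09 and 0 in KO ESCs and 182 and 140.1 in KO EBs, a difference of 3.99 ± 0.50 (SE; adjusted p = 0.00044).

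Col13a1, a collagen with a membrane anchor, crossed over. It held 120.2 and 127 in WT ESCs, 26.1 and 20.7 in WT EBs, 7.07 and 7.27 in KO ESCs and 122 and 137 in KO EBs, so that WT ESCs and KO EBs were alike while WT EBs and KO ESCs were low. It fell in WT, with a response of -2.36, rose in KO by 3.99, and differed by 6.36 ± 0.26 (SE; adjusted p = 1.3e-06). Acsl6, a fatty acid activating enzyme gene, and Ano9, a member of the anoctamin family, likewise fell in WT and rose in KO, with differences of 3.91 and 3.46. With replicate C the value for Col13a1 was 2.66, for Acsl6 0.41, and for Ano9 2.73.

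Cspg5, a neural chondroitin sulfate proteoglycan, was low in 3 groups and high in 1. It held 40.8 and 38.2 in WT ESCs, 32.2 and 27.5 in WT EBs, 35.4 and 33.6 in KO ESCs and 496 and 461 in KO EBs, and the difference was 4.15 ± 0.21 (SE; adjusted p = 4.1e-06). Casq2, a calcium buffer of heart muscle, held 12.2 and 13.0 in WT ESCs, 9.96 and 9.47 in WT EBs, 27.2 and 26.3 in KO ESCs and 399 and 425 in KO EBs, a difference of 4.24 ± 0.24 (SE; adjusted p = 8.4e-06). Krt42, a keratin expressed in ESCs, held 227 and 195 in WT ESCs, 369 and 335 in WT EBs, 4.35 and 2.72 in KO ESCs and 326 and 304 in KO EBs, so that only KO ESCs were low, with 5.41 ± 0.26 (SE; adjusted p = 3.2e-06). With replicate C in place of A and B, Casq2 gave 0.06 and Krt42 -0.74, while Cspg5 gave 4.40 and Gjb1 5.48.

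Accsl, related to an enzyme of plant ethylene synthesis, fell in WT from 325 and 337 to 21.5 and 22.4 and stayed between 107 and 130 in the 4 KO libraries, a difference of 3.96 ± 0.19 (SE; adjusted p = 3.2e-06). Tcf15, a factor of cells that leave the naive state, held 109 and 79.4 in WT ESCs, 267 and 168 in WT EBs, 20.7 and 7.27 in KO ESCs and 636 and 396 in KO EBs. Its KO EB libraries were the highest of the 8, and its difference was 4.05 ± 0.64 (SE; adjusted p = 0.0021).

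Of the naive pluripotency genes all 19 were tested and 4 were called higher by limma, against 7.95% of all genes. At an unadjusted p under 0.05 there were 6 higher and 5 lower, and the median difference was 0.11, with median responses of -0.89 in WT and -0.85 in KO. Its median changed sign within the alternative settings, from -0.09 to 0.20, and was 1.20 with replicate C. Esrrb, an orphan receptor of the naive network, held 3875 and 3618 normalized counts in WT ESCs, 2194 and 2151 in WT EBs, 8803 and 8049.9 in KO ESCs and 4586 and 4399 in KO EBs, a difference of -0.12 ± 0.10 (SE; adjusted p = 0.40). EBs lay under ESCs in both genotypes, at -0.79 and -0.91, from different ESC levels. Prdm14, which keeps the naive state against FGF signalling, held 690.3 and 691 in WT ESCs, 181 and 189 in WT EBs, 448 and 482 in KO ESCs and 282 and 318 in KO EBs, a difference of 1.26 ± 0.13 (SE; adjusted p = 0.00016). Tcl1, a coactivator of the kinase Akt, held 584 and 617 in WT ESCs, 402 and 429 in WT EBs, 203 and 227 in KO ESCs and 523 and 561 in KO EBs, a difference of 1.86 ± 0.13 (SE; adjusted p = 2.3e-05).

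Among 16 general pluripotency genes, 4 were called higher and 1 lower, with a median of 0.73. Lin28a, which binds the precursor of the let-7 microRNAs, held 307 and 303 normalized counts in WT ESCs, 1063 and 1023 in WT EBs, 16.9 and 12.7 in KO ESCs and 434 and 449 in KO EBs. KO ESCs had the low pair, and EBs of either genotype were above their ESCs. The difference was 3.05 ± 0.18 (SE; adjusted p = 1e-05), but -0.62 with replicate C. Dppa5a, an RNA-binding protein of ESCs, held 5821 and 5803 in WT ESCs, 3176 and 3368 in WT EBs, 2162 and 2058 in KO ESCs and 3157 and 3075 in KO EBs. The EB pairs were close to each other, and the WT ESC pair was the high one. Its responses of -0.83 (WT) and 0.56 (KO) were too small for a call on their own, and its difference was 1.39 ± 0.09 (SE; adjusted p = 1.9e-05). Trim28, the most abundant member without a call, gave 0.13.

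Of the genes of the primed epiblast, the state that follows the naive one, 10 of 14 were tested, with 3 lower and 2 higher. Otx2, a homeobox factor of that step and of anterior visceral endoderm, held 80.1 and 48.1 normalized counts in WT ESCs, 235 and 245 in WT EBs, 124 and 122 in KO ESCs and 33.9 and 30.6 in KO EBs. It rose in WT and fell in KO, with responses of 1.93 and -1.90, a difference of -3.83 ± 0.30 (SE; adjusted p = 4.4e-05), which was -1.15 with replicate C. Cldn6, a claudin of epithelial junctions, held 124 and 123 in WT ESCs, 1208 and 1132 in WT EBs, 45.7 and 43.6 in KO ESCs and 128 and 122 in KO EBs and rose in both, a difference of -1.77 ± 0.14 (SE; adjusted p = 4.6e-05). Zic2 held 197 and 175 in WT ESCs, 136 and 87.8 in WT EBs, 335 and 286 in KO ESCs and 538 and 402 in KO EBs, a difference of 1.35 ± 0.30 (SE; adjusted p = 0.0083).

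Neural genes had 6 calls higher and 2 lower among 14 tested of 24 listed, against 7.95% and 10.1% of all genes, and the lower calls numbered 1 by edgeR and 0 by DESeq2, with 4 at an unadjusted p under 0.05 by limma. The median of 0.33 ranged from 0.23 to 2.30 over the alternative settings with replicates A and B. Tubb3, a neuronal tubulin, held 439 and 377 normalized counts in WT ESCs, 316 and 263 in WT EBs, 124 and 99.0 in KO ESCs and 602 and 469 in KO EBs, a difference of 2.75 ± 0.23 (SE; adjusted p = 5.9e-05). Stmn2, which regulates microtubules in growth cones, held 583 and 605 in WT ESCs, 534 and 618 in WT EBs, 131 and 115 in KO ESCs and 748 and 796 in KO EBs, a difference of 2.69 ± 0.15 (SE; adjusted p = 6.1e-06). In both genes the KO ESC pair was the lowest, the WT pairs lay between, and the KO EB pair was the highest. Olig1, a factor of the oligodendrocyte line, held 199 and 151 in WT ESCs, 70.5 and 53.4 in WT EBs, 62.0 and 55.4 in KO ESCs and 172 and 157 in KO EBs, a difference of 2.95 ± 0.26 (SE; adjusted p = 6.8e-05). The 2 members called lower by limma were Neurod1 at -2.15 and Neurog1 at -1.57, and the most abundant member without a call, Nes, gave -0.60. The neural factor Pax6 and the neuroblast gene Dcx did not reach the filter, and Pax6 stayed at 8.43 normalized counts or less in the 8 libraries.

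Germ cell and meiosis genes had 4 higher calls among 19 tested of 20. Of the 19, 1 reached the filter only through WT EBs and 1 only through KO EBs. Mael, a protein of the piRNA pathway, held 163 and 155 normalized counts in WT ESCs, 202 and 196 in WT EBs, 9.25 and 12.7 in KO ESCs and 136 and 122 in KO EBs. KO ESCs stood apart as the low pair, and the difference was 3.13 ± 0.23 (SE; adjusted p = 3.1e-05). Tex19.1, which curbs retrotransposons in ESCs and germ cells, gave -0.13 ± 0.10 (SE; adjusted p = 0.33).

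Cholesterol synthesis genes fell in WT in 12 cases and in KO in 1, among the 18 listed and tested. In the difference 6 were called higher, with median responses of -1.16 and -0.31. Msmo1, a sterol demethylase, held 1036 and 1075 normalized counts in WT ESCs, 272 and 276 in WT EBs, 507 and 526 in KO ESCs and 339 and 356 in KO EBs, a difference of 1.37 ± 0.11 (SE; adjusted p = 4.2e-05). Fdps, farnesyl diphosphate synthase, held 456 and 368 in WT ESCs, 95.0 and 89.5 in WT EBs, 132 and 114 in KO ESCs and 68.5 and 67.9 in KO EBs, a difference of 1.30 ± 0.19 (SE; adjusted p = 0.0011). WT ESCs were the high pair in both genes, and the EB pairs of the genotypes were closer than the ESC pairs. In ESCs 8 of the 18 were called lower in KO. With replicate C the list median was 0.45, Msmo1 gave 1.03, and Fdps, at 0.52, was no longer called.

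ERK pathway targets, whose transcription needs MEK activity, rose in 9 of 15 tested genes in WT and in 8 in KO, and 3 were called higher and 2 lower in the difference. Of the 15, 1 reached the filter only through WT EBs. Dusp6, the phosphatase that feeds back on ERK, held 53.6 and 52.7 normalized counts in WT ESCs, 589 and 545 in WT EBs, 20.7 and 16.3 in KO ESCs and 596 and 555 in KO EBs. The EB pairs overlapped, KO ESCs were lower than WT ESCs, and the difference was 1.50 ± 0.19 (SE; adjusted p = 0.00045), or 0.35 with replicate C. Etv4, an ETS factor below FGF signalling, held 47.2 and 40.5 in WT ESCs, 587 and 509.6 in WT EBs, 25 and 18.2 in KO ESCs and 795 and 664 in KO EBs, a difference of 1.41 ± 0.25 (SE; adjusted p = 0.0026).

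The m6A machinery had 0 calls among 21 tested by limma, edgeR or DESeq2, with 2 higher and 9 lower at an unadjusted p under 0.05. Its most abundant member was Igf2bp1, a binding protein of methylated mRNA, at -0.82 ± 0.10 (SE; adjusted p = 0.00035). The 20 cell cycle genes also had 0 calls by these 3 tools, with 4 higher and 3 lower at an unadjusted p under 0.05, and Top2a, a topoisomerase of dividing cells, gave 0.52. ER stress genes had 2 higher calls of 18, close to the 7.95% of all genes. One was Ddit3, the stress factor CHOP, which held 1024 and 936 normalized counts in WT ESCs, 593 and 487 in WT EBs, 367 and 331 in KO ESCs and 654 and 568 in KO EBs and differed by 1.67 ± 0.17 (SE; adjusted p = 0.00014). The fibroblast list had 2 calls in each direction among 22, close to the shares of all genes (7.95% higher and 10.1% lower). Its most abundant called member, Col3a1, held 3115 and 3171 in WT ESCs, 1464 and 1469 in WT EBs, 6222 and 6532 in KO ESCs and 736 and 752 in KO EBs, so that KO ESCs were highest and KO EBs lowest, with -2.00 ± 0.09 (SE; adjusted p = 2.6e-06), and -0.74 with replicate C. Fn1, fibronectin, was not called, at 0.08.

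Replication-dependent histone genes had 4 higher calls among 54 tested of 62, close to the 7.95% of all genes. The median was 0.33, with a range of 0.15 to 0.48 over the alternative settings with A and B. They are near-identical copies, so the split of reads among them is uncertain, and 2 of the 54 reached the filter only through KO EBs. Hist1h1c, the most abundant, was not called, at 0.06. Hox genes mostly missed the filter, with 12 of 39 tested, 1 of them only through WT EBs, and 4 called higher and 1 lower. Hoxc12 held 35.1 and 32.8 normalized counts in WT ESCs and had 0 reads in WT EBs, while KO held 20.7 and 14.5 in ESCs and 14.8 and 6.79 in EBs. Of the nuclear noncoding RNAs 8 were tested, and Neat1, the scaffold of paraspeckles, was the only call. It held 751 and 847 in WT ESCs, 2139 and 2408 in WT EBs, 6863 and 7249 in KO ESCs and 4846 and 5323 in KO EBs, a difference of -1.98 ± 0.13 (SE; adjusted p = 1.7e-05), and its sign depended on the ESC libraries, since it was 4.46 with replicate C.

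**Figure D4:**
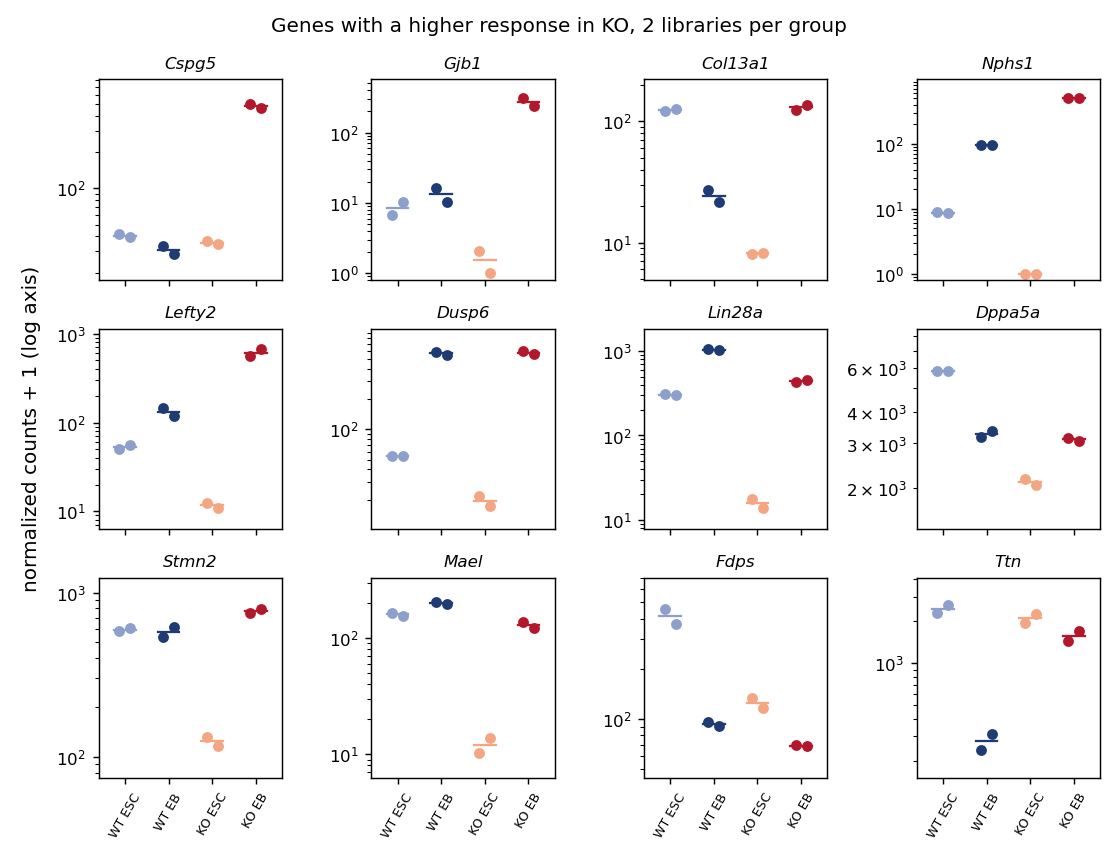
Normalized counts plus 1 (log axis) of 12 genes with a higher KO response in the 2 libraries of each group (points) with their mean (line). KO EBs are far above the other groups for Cspg5 and Gjb1, KO ESCs are the low pair for Lin28a, Stmn2 and Mael, and WT EBs are the low pair for Ttn.

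The difference of response is the KO effect in EBs minus the KO effect in ESCs, so either state can carry it. In EBs 1361 genes (8.56%) were higher and 1429 (8.99%) lower in KO, and in ESCs 1619 (10.2%) higher and 1390 (8.74%) lower. For the 1611 lower genes the KO effect was the larger of the 2 in EBs in 834 (51.8%), and for the 1264 higher genes in 533 (42.2%). Of the lower genes 560 were called for the KO effect in EBs only, 510 in ESCs only, 120 in both with opposite sign, 94 in both with the same sign and 327 in neither. Of the higher genes the same classes held 346, 489, 71, 72 and 286. In the endoderm regulator list 10 of 14 were lower in KO EBs, while in ESCs 4 were higher in KO and 1 lower. Lama1 is an example from EBs, with a KO effect of -7.71 in EBs and 0.19 in ESCs, and Lin28a one from ESCs, with -1.24 in EBs and -4.29 in ESCs.

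Replicate C of the ESCs gave a check of the ESC side in libraries that the differences above did not use. It stood apart from A and B in both genotypes. It held 3026837 reads in genes for WT and 3075007 for KO, and the nuclear RNA Rn7sk was at 0 and 5.55 normalized counts against 92183 to 220410 in the other libraries. The fibroblast list summed to 7603 and 4211, and Zfp42, a marker of naive ESCs, stood at 10771 and 4477 against 1206 to 1380 in the other 4 ESC libraries. With C in place of A and B, the ESC groups have no replicate, so calls in that fit rest on the spread between EB libraries alone. It also shares its EB libraries with the first comparison.

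For the ESC side alone, the KO effect in C had the same sign as in A and B in 615 of 838 called genes (73.4%) whose effect was larger in ESCs, in 396 of 750 (52.8%) whose effect was larger in EBs, and in 65.4% of all genes at that level, which was 50 or more normalized counts in C. The medians of the endoderm lists stayed below 0 with C, at -4.44, -4.47 and -4.70 against -4.12, -3.41 and -1.78 with A and B. Their WT EB libraries, where these genes are high, are the same in both, so C could check their ESC side only. The median reversed for the ER stress, Hox, Wnt target, cell cycle and histone lists, to -0.57, -0.65, -0.46, -0.23 and -0.01. Several other genes named by rule and described above kept their sign with C, at a value more than 1.5 times smaller or larger. Smaller were Accsl (1.41), Fos (-1.08), Gkn2 (-4.33), Hkdc1 (-5.87), Nphs1 (2.80), Kirrel2 (2.22), P4ha1 (-1.60), Perp (-1.07), Sox17 (-5.41), Stmn2 (1.60), Tubb3 (1.70) and Tcf15 (2.29). Larger were Bmp2 (-5.75), Cldn6 (-2.67), Cyp26a1 (-13.95), Dppa5a (2.41), H19 (-9.17), Myh7 (-9.04), Myl3 (-6.38), P4ha2 (-3.69) and Pth1r (-9.83). A fit of all 10 libraries, with A, B and C as replicates, called 10 genes higher and 65 lower. Of the 67 higher and 73 lower genes named by rule, 120 kept their sign but were no longer called in that fit.

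**Figure D5:**
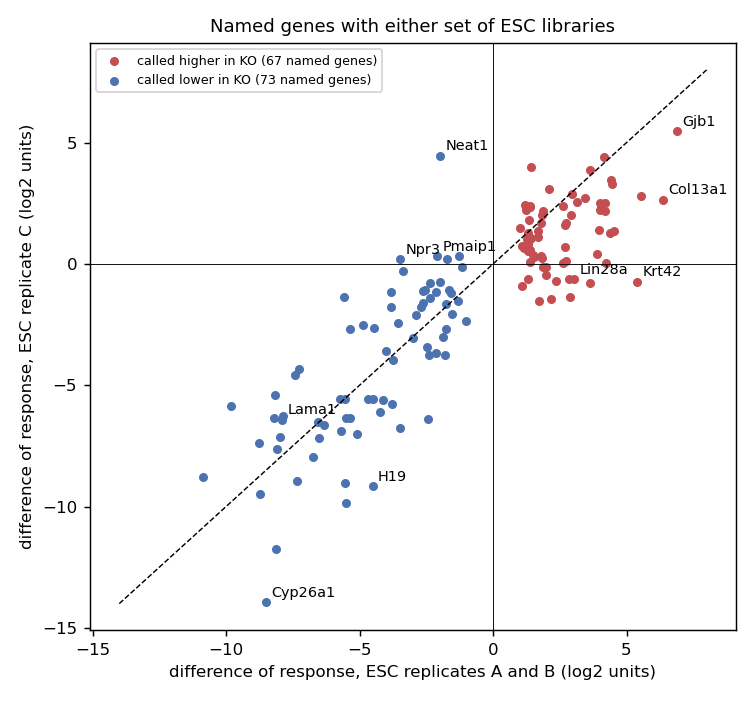
Difference of response (log2 units) of the 67 higher and 73 lower genes named by rule, with ESC replicates A and B (horizontal axis) and with ESC replicate C in their place (vertical axis); EB libraries are the same on both axes, and the dashed line marks equal values. Lower genes such as Lama1 and Cyp26a1 stay far below 0 on both axes, while Neat1, Krt42 and Lin28a lie on opposite sides of 0.

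Sequence features had similar medians in the called genes and in all genes tested. Among protein-coding genes the median transcript was 3183 bases long for higher genes, 3669 for lower genes and 3388.5 for all tested, taking the longest annotated transcript. The m6A consensus GGACT occurred 1.09 and 1.10 times per 1000 bases at the median in higher and lower genes and 1.05 times in all, on the transcript strand. The median GC content was 52.4%, 51.0% and 50.3%, and the median exon number was 8 in each. Protein-coding genes made up 84.4% of higher, 90.1% of lower and 84.2% of all genes. These are descriptions over genes, with no test of a link to methylation, which was not measured in these files. By chromosome the median difference was between -0.06 and 0.08 on autosomes other than 11, -0.10 on chromosome 11, -0.08 on the X and 0.47 on the Y, where only 7 genes were tested.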

How the data were processed

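The authors deposited 1 table of gene counts divided by DESeq size factors, a signal on a linear scale, and the submitters' processing notes name HTSeq 0.6.0, TopHat2 2.0.10, CASAVA 1.8.2, Bowtie and DESeq, with the build mm10. The annotation release and strand setting are not given in the sources used here, and the kit named in the labels' protocols does not keep strand. All 10 columns came out as whole reads (100% of values within 0.01 of a whole number). The 5 summary lines were left out (reads outside genes were 34.0% to 38.8% of each library used), and 37607 of 39179 identifiers had a symbol in GENCODE vM21 (GRCm38).

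Values were tested as log2(value + 1) with limma 3.58.1 (trend and robust, 1 mean per group, 4 residual degrees of freedom) in R 4.3.3, adjusted after Benjamini and Hochberg over 15896 genes, and the code was tested on simulated counts. With edgeR 4.0.16 on the recovered reads, 1279 genes were called higher and 1598 lower; DESeq2 1.42.0 was run as well. Each p-value reflects the spread between A and B only, which may be technical. Promoters came from RefSeq (GRCm38.p6).

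Genes named are, per direction, the 15 largest called differences with 100 or more normalized counts in the highest group and the same sign in all 16 choices of 1 library per group, the 3 largest per response class, from each list the most abundant member not called and at most 3 called ones in either direction, and Mettl3. Other genes, among them Gata4, Gata6, Col4a2 and Lamc1, were chosen after their values were seen, and a few genes that the rule picks are not reported here. The comparison and the lists were chosen with earlier results of these data known.

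Of 28 lists, 3 names matched no identifier (Snrpn, Kcnq1ot1 and Hoxd4). Log2 values carry the SE of the fit, each group holds n = 2 libraries, and the alternatives are those of the closing section.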

Additional observations from a re-analysis of the deposited data

Results flagged for a closer look

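The response differed between the genotypes, by the interaction tested in limma, for 2875 genes, and for 160 of them the response in WT and the response in KO were called in opposite directions.

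Within that set, the largest differences with a fall in WT and a rise in KO were those of Col13a1 (6.36), Acsl6 (3.91) and Ano9 (3.46). The largest with a rise in WT and a fall in KO were those of Aqp8 (-10.86), Hkdc1 (-9.81) and Srgn (-8.21).

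The ESC libraries of replicate C, which the comparison does not use, gave values of the other sign past the same threshold for several named genes. Neat1 differed by 4.46 with replicate C, Hist1h1c by -2.68, Apoe by 2.00 and Esrrb by 1.86, against -1.98, 0.06, -0.14 and -0.12 with replicates A and B. The last 3 were not called with A and B.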

How the results depend on the processing

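Every one of the 2875 called genes kept the sign of its difference under both pseudocounts except 1 at a pseudocount of 5, and under TMM scaling, median centring, edgeR, DESeq2, limma without trend and robust variances, and the replicate block. The counts of 1264 higher and 1611 lower genes stayed within 1.5 times in those settings. With 1 library left out they ran from 1100 to 1262 higher and from 1495 to 1649 lower. TMM gave 1420 and 1457, and median centring 1493 and 1417, with the median of all genes moved by under 0.1.

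A mean of 50 or more, which tests fewer genes, left 724 higher, and a test against a size of 1 (treat) left 295 higher and 559 lower. All 10 libraries left 10 and 65, with 1350 genes at an unadjusted p under 0.05. Replicate C as the ESC library, a setting chosen after seeing the data, gave 1913 higher, and 1329 of the 2875 genes were called again with the same sign, while 2252 were lower.

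The same settings moved the counts of each response. In WT, 3176 rose without a filter, 896 at a mean of 50, 715 by treat, 297 with all 10 libraries and 5511 with C, and 553, 254, 58 and 2719 fell in the last 4. In KO, 2429 rose without a filter, 745 at a mean of 50, 660 by treat, 71 with all 10 and 5290 with C, and 738, 419, 52 and 2800 fell in the last 4. For the KO effect in EBs, 781 were higher at a mean of 50, 326 by treat and 66 with all 10; 2711 were lower without a filter, 616 by treat and 205 with all 10. In ESCs a mean of 50, treat and all 10 libraries gave, in that order, 1005, 533 and 160 higher and 822, 509 and 114 lower.

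Among named genes called with either set of ESC libraries, replicate C turned the sign of Krt42 (-0.74), Anxa4 (0.21), Npr3 (0.20), Apoe (2.00), Esrrb (1.86), Lin28a (-0.62), Foxd3 (0.33), Myl4 (-0.79), Myh6 (-1.35), Tie1 (-1.43), Tagln (-0.90), Usp29 (-0.63), Plagl1 (-0.62), Igf2r (1.26), Hoxc4 (-1.53), Nkd1 (-0.11), Crabp1 (-0.11), Pmaip1 (0.33), Neat1 (4.46, and 0.17 with all 10), Hist1h2aa (-0.70), Hist1h2ba (-0.46) and Hist1h1c (-2.68); the cause was not tested. A further 10 named genes called in neither setting also changed sign, among them Cdh1 (0.72), Eomes (-0.88) and Hspa5 (-0.87). Of 169 named genes, 161 kept their sign and their side of the threshold by edgeR and 159 by DESeq2.

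Replicates A and B share a letter only. Same-letter libraries deviated together in all 6 pairs of groups (r = 0.329 to 0.371), and a replicate block raised the genes at an adjusted p under 0.05 from 5731 to 9189, with 1438 higher and 1737 lower called. It ended 1 call of the named genes, Lefty1. With n = 2 libraries a group and 8523027 to 15426894 reads, genes at a few reads are limited by depth.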

Other observations

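Genes of the Y chromosome stood higher in KO libraries than in WT libraries in both states. Kdm5d, a Y-linked histone demethylase, held 5.01 and 3.82 normalized counts in WT ESCs, 6.13 and 12.9 in WT EBs, 239 and 266 in KO ESCs and 248 and 288 in KO EBs, and its difference of response was -0.81 ± 0.42 (SE; adjusted p = 0.17). Over 7 tested Y-linked genes the median KO effect was 2.87 in EBs and 1.96 in ESCs, and the median difference of response was 0.47. On chromosome 11, over 1366 tested genes, the median KO effect was -0.44 in EBs and -0.31 in ESCs, so most of it was common to both states and left a median difference of -0.10. Differences between the WT and KO cells other than Mettl3 cannot be told apart from genotype here, and their part in the differences of response was not tested.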
